A study of Homo sapiens with 18 samples.

Results

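The 10 genes described here encode the JUN and FOS families of transcription factors and 3 close relatives: JUN, JUNB, JUND, FOS, FOSB, FOSL1, FOSL2, BATF, BATF3 and ATF3. They were chosen by name from 19974 protein-coding genes on chromosomes 1 to 22 and X. A peak was assigned to a gene when at least 1 bp of it fell in the body or in the 10 kb on either side, with gene positions from RefSeq on GRCh38.p14. Of 35622 regions called by any antibody in any condition, 55 lay in these 10 gene windows.

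JUN, JUNB and JUND proteins pair with each other or with a FOS family protein through leucine zippers, and the pairs form AP-1, which binds a short palindromic DNA site. FOS proteins need such a partner to bind DNA, whereas JUN proteins can bind alone. Several of these genes are switched on within minutes of growth or stress signals that run through MAP kinases, and in myeloid cells AP-1 takes part in differentiation toward monocytes and macrophages. AML1-ETO joins the DNA-binding domain of RUNX1 (AML1) to most of the corepressor RUNX1T1 (ETO), and AP-1 proteins are known to work at sites bound by RUNX1 and by the fusion.

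Occupancy of AML1-ETO was mapped by CUT&RUN, in which an antibody directs a nuclease to its target and the released DNA is sequenced. All libraries came from Kasumi-1, a human acute myeloid leukaemia line with the t(8;21) translocation, carrying a Flag-tagged AML1-ETO. Viable GFP-positive cells were sorted 3 days after transduction, as control or with knockdown of the microRNA miR-130a, to ask whether the sites of the fusion change. Each condition was profiled with anti-ETO, anti-Flag and mouse IgG, in 3 libraries each, for 18 libraries in 6 groups. The labels do not describe the transduced vectors, or say whether the tagged line is 1 clone or how much untagged fusion it holds. Peak positions hold no marker that checks the cells' identity, and peaks of the IgG libraries were not used here.

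What the lists hold limits what follows. Each antibody and condition has 1 list of peak positions with no height, score or replicate: 14264 control anti-ETO, 22594 knockdown anti-ETO, 23162 control anti-Flag and 25961 knockdown anti-Flag peaks. From these the authors made lists of sites with calls of both antibodies, 12247 in control and 13712 in knockdown, here called dual-antibody peaks. Those were divided into 8731 present in both conditions (shared), 3059 found in control alone (control-unique) and 4617 found in knockdown alone (knockdown-unique). The read depth behind a call is unknown, the spread over 3 libraries cannot be computed, and no difference below was tested: each is a difference between lists. The knockdown list was 1.58 times as long as the control list in peak number for anti-ETO and 1.12 times for anti-Flag, and the part of this in each gene's values was not tested.

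JUNB, JUND and the 4 FOS family genes had peaks in every single-antibody list, while JUN, BATF, BATF3 and ATF3 had few or none. JUNB and FOSL1 each held 6 shared peaks, FOS and JUND 3 each and FOSL2 2. FOSB held none, and was the member with both a pair of control-unique and a pair of knockdown-unique peaks. JUN, BATF and ATF3 had peaks in single-antibody lists and no dual-antibody peak. BATF3 had no peak in any list.

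**Figure D1:**
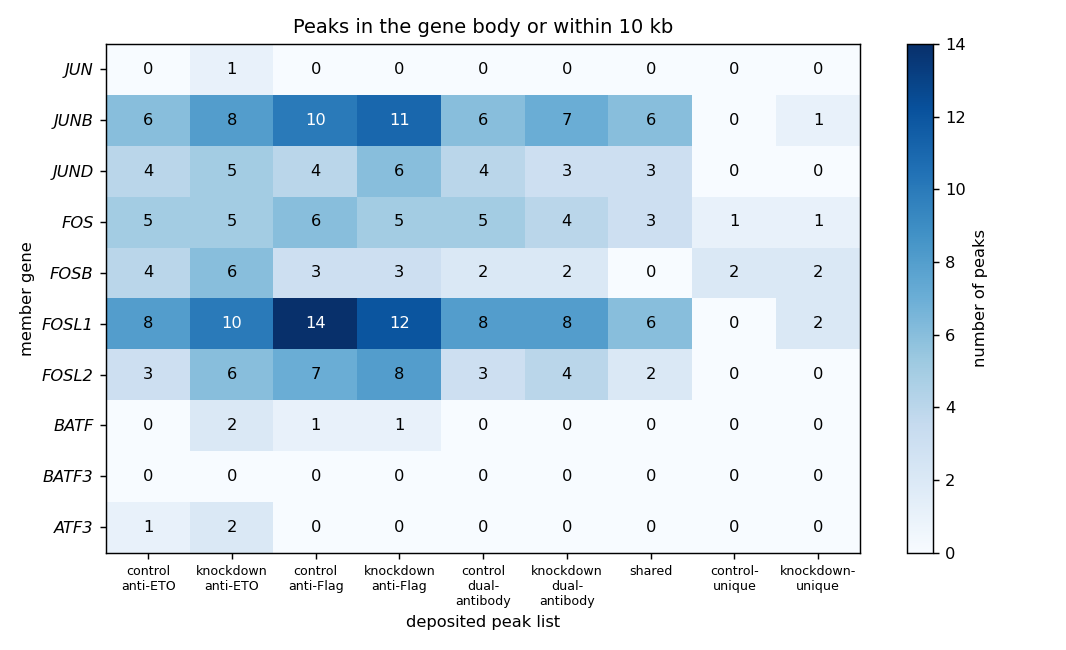
Number of peaks in the body or within 10 kb of each of the 10 genes (rows) in each of the 9 deposited lists (columns); colour and printed number both give the count. The row of FOSL1 reaches 14 in control anti-Flag, and the row of BATF3 is 0 throughout.

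Peaks of the control anti-ETO list lay at 7 of the 10 genes, against 47.6% of all protein-coding genes. In the knockdown anti-ETO list it was 9 of 10, against 53.8%. Control anti-Flag peaks lay at 7 of 10, against 50.2%, and knockdown anti-Flag peaks at 7 of 10, against 42.2%. These shares lay above the background in each list, but with 10 genes a single gene moves the share by 10 percentage points. Dual-antibody peaks lay at 6 of the 10 genes in control (43.8% of all genes) and at 6 in knockdown (39.4%). Shared peaks lay at 5 of 10, against 35.1%. Control-unique peaks lay at 2 of 10, against 16.9%, which is near the background, and knockdown-unique peaks at 4 of 10, against 18.4%. The latter count depended on the outer flank and on narrow peaks: it was 1 with a flank of 5 kb or with the gene body alone, and 2 with the wider 50% of each list or with all 4 single-antibody lists shortened to the same length. Among the 13110 protein-coding genes within the members' length range of 1830 to 55371 bp, the background for shared peaks was 37.8% and for knockdown-unique peaks 21.7%. Among the 6673 on the members' chromosomes it was 37.9% and 22.1%, and for knockdown anti-Flag peaks 46.5%. Both a shared and a unique peak were found at 3 members (JUNB, FOS and FOSL1), against 18.9% of all genes. With a flank of 5 kb JUNB and FOSL1 had 0 unique peaks, and FOS kept its control-unique one. A peak in all 4 single-antibody lists was found at 6 members (JUNB, JUND, FOS, FOSB, FOSL1 and FOSL2), against 37.3% of all genes, and a peak in none at 1 (BATF3), against 41.6%.

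**Figure D2:**
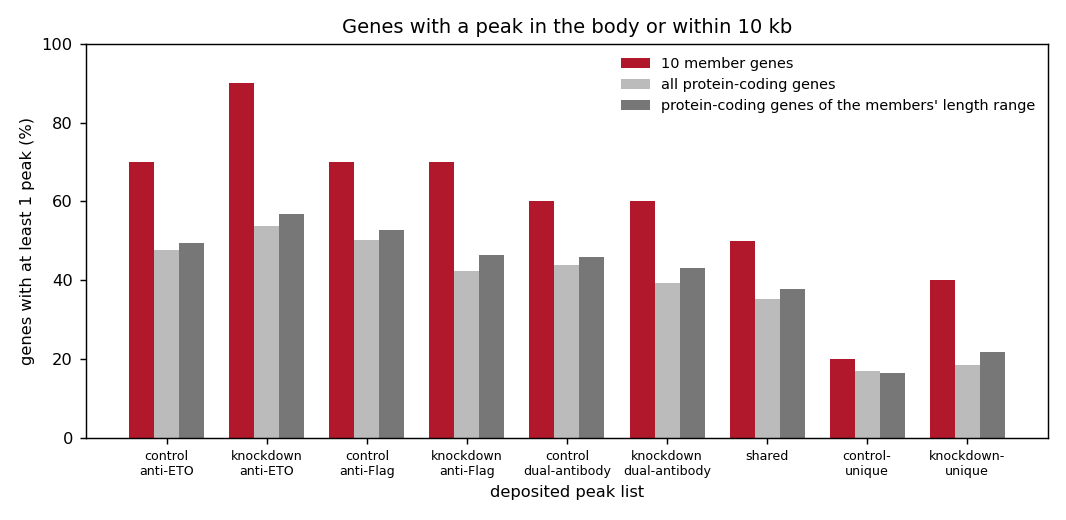
Share of genes (%) with at least 1 peak in the body or within 10 kb, for the 10 members, all 19974 protein-coding genes and the 13110 of similar length, in each deposited list. The members' bar is the highest of each trio, and in the control-unique list it stands at 2 of 10 genes against 16.9% of all genes.

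FOSL1 and BATF3 had no listed start and so no sequence to show. For the other members, the sequence just upstream of the listed start is shown where that start region carried calls. JUN is shown as the founding member whose start region carried none. Each is the 250 bases before the start site, 5′ to 3′ on the gene's strand, from RefSeq GRCh38.p14. Capitals mark matches to the motifs searched: CCAAT, the octamer TGACNTCA, the ETS core CCGGAA and the RUNX site TGTGGT, which in BATF lies on the opposite strand and so reads as ACCACA.
JUNB: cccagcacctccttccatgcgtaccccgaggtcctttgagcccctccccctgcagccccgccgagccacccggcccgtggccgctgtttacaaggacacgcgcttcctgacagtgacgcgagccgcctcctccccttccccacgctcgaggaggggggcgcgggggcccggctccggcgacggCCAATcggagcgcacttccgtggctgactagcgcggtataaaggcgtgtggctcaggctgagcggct
FOS: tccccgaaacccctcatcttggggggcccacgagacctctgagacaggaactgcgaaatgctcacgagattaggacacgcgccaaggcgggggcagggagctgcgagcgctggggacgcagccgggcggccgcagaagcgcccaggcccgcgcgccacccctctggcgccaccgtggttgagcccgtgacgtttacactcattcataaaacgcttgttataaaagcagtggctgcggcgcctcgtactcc
FOSL2: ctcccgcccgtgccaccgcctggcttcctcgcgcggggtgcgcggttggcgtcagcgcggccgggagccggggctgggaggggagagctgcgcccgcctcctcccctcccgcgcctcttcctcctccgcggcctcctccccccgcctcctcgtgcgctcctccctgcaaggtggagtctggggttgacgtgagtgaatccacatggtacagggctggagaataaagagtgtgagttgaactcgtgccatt
FOSB: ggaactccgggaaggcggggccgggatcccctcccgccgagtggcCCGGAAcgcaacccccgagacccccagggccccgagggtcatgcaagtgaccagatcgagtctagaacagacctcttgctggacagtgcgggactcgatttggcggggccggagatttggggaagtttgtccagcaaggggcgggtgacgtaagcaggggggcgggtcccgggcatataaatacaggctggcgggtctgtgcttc
BATF: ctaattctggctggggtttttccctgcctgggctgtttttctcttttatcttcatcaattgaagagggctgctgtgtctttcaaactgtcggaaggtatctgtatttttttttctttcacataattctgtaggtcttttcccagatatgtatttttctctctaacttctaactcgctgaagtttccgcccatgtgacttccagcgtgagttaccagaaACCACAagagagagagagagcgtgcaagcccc
JUN: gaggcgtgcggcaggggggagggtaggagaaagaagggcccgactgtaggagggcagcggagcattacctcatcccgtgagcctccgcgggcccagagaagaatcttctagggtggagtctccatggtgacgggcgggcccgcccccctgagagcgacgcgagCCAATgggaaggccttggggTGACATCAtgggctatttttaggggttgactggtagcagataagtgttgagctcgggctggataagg
The positions are chr19:12791236-12791485 for JUNB, chr14:75278578-75278827 for FOS, chr2:28392608-28392857 for FOSL2 and chr19:45467746-45467995 for FOSB, all on the plus strand. BATF is at chr14:75522219-75522468 on the plus strand and JUN at chr1:58784048-58784297 on the minus strand. The G and C content was 70.8% for JUNB, 69.6% for FOSL2, 65.6% for FOSB, 64.8% for FOS, 62.0% for JUN and 43.2% for BATF, and the median over 22156 promoters was 62.0%. BATF was thus the only one of the 6 printed sequences below that median.

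For JUNB, FOS and FOSL2 the whole 250 bases lay under a shared peak and under both control lists. Under knockdown anti-Flag peaks lay 114 of the 250 bases at JUNB, 162 at FOS and 116 at FOSL2, so the anti-Flag calls covered the start region in part only. At FOSB no base was under a control list, whereas 193 bases were under knockdown anti-ETO and 170 under knockdown anti-Flag peaks. At BATF 243 bases were under control and 250 under knockdown anti-Flag peaks and none under anti-ETO peaks. None of the JUN or JUND bases was under a peak of the 4 single-antibody lists.

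Motifs were searched on both strands of the 9 upstream sequences matched to 8 of the members, with 2 listed starts for ATF3. A match is a description of the letters and not of a bound site. The pattern TGANTCA, which stood for the AP-1 site with any middle base allowed, was in none of the 9 and in 5.36% of all 22156 promoters. The cyclic AMP response element TGACGTCA was in 1, that of JUND, and in 2.01% of all. The wider octamer TGACNTCA, added after the sequences were seen and overlapping the former, was in JUN, JUND and 1 ATF3 sequence, and in 6.14% of all. At JUN it read TGACATCA, 67 to 60 bases before the start. The RUNX site TGTGGT was in BATF alone, 32 to 27 bases before its start, and in 9.38% of all promoters, and TGCGGT was in none of the 9 and in 6.82%. CCAAT was in 4 of the 9 (JUN, JUNB, JUND and 1 of ATF3) and in 32.7% of all. CCGGAA was in FOSB alone and in 17.9% of all, and the E-box CAGCTG in 1 ATF3 sequence and in 13.7%. CAGGTG was in none (17.1% of all), nor was the CArG box bound by serum response factor (1.18% of all).

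A listed start site lay inside a control anti-ETO peak at JUNB, FOS and FOSL2, which is 3 of 8 members with a listed start, against 22.0% of 15812 genes. The same 3 starts lay inside knockdown anti-ETO peaks (26.6% of genes). Control anti-Flag peaks covered 4 starts, those 3 and BATF (19.3%), and knockdown anti-Flag peaks covered 1, that of BATF (12.2%). Dual-antibody peaks covered 3 starts in control (21.8%) and 3 in knockdown (20.2%), and shared peaks covered 3 (19.9%). Starts in a control-unique peak numbered 0 (3.60% of genes) and in a knockdown-unique peak 0 (1.85%). FOSL1 had no listed start and is not in these counts. Both ends of its gene lay inside peaks of all 4 single-antibody lists, knockdown anti-Flag included. The 3 starts missing from the knockdown anti-Flag list lay beside calls rather than far from them. The FOS call chr14:75278561-75278739 ended 89 bp before the start, and the FOSL2 call chr2:28391935-28392723 ended 135 bp before it. The JUNB start fell in a gap between chr19:12788483-12791349, 137 bp upstream, and chr19:12791532-12791930, 46 bp downstream.

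Of the JUN family, JUNB had the densest calls. JUNB, which pairs with FOS proteins and often restrains growth where JUN promotes it, is a gene of 1830 bp at chr19:12791486-12793315 on the plus strand. It had 6 control and 8 knockdown anti-ETO peaks, and 10 control and 11 knockdown anti-Flag peaks. Its widest shared peak, chr19:12788166-12795069, spanned 6904 bp and covered the start and the whole gene. Only 6 of the 8731 shared peaks, itself included, were at least as wide (0.0687%). In the control anti-ETO list that region was 1 peak of 5717 bp and in the knockdown list 1 of 6627 bp. In control anti-Flag it was 2 peaks of 3816 and 2475 bp, and in knockdown anti-Flag 3 peaks of 2867, 399 and 2395 bp.

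The other 5 shared JUNB peaks were 882 to 1837 bp wide, 3 of them upstream inside HOOK2, the neighbouring gene for a microtubule adaptor, and 2 downstream over PRDX2, which encodes a peroxide-removing enzyme. The farther of these also reached THSD8. The widest JUNB peak also overlapped HOOK2, so no peak upstream of JUNB can be given to JUNB rather than to its neighbour by position. Shared peaks covered 13625 bp, or 62.4% of the 21830 bp window of JUNB. Only 24 of the 19974 genes, JUNB among them, had as many bp (0.120%), and 156 had as many shared peaks (0.781%). With the gene body alone JUNB had 1 shared peak and with a flank of 50 kb it had 18, so these ranks describe the stretch around JUNB as well as the gene.

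JUND, the family member expressed most steadily in resting cells, lies at chr19:18279694-18281622 on the minus strand. It had 4 control and 5 knockdown anti-ETO peaks, and 4 control and 6 knockdown anti-Flag peaks. Its 3 shared peaks lay around the start and not on it. One of 550 bp, chr19:18280205-18280754, was in the gene body, and one of 800 bp, chr19:18281943-18282742, had its nearer edge 321 bp upstream of the start and overlapped the microRNA gene MIR3188. The third, chr19:18290030-18292754, was 2725 bp wide, and its nearer edge lay 8408 bp upstream, over LOC124904653, an annotated gene known by its number only. This distal region was called as 1 peak of 2687 bp in knockdown anti-ETO and as 4 peaks of 212, 326, 325 and 936 bp in knockdown anti-Flag. The last of these began beyond the 10 kb window and so is not among the 6 counted for JUND, nor in its covered length. In both control lists it was a pair of peaks, of 608 and 1071 bp for anti-ETO and of 993 and 1158 bp for anti-Flag.

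JUN, the founding member and main target of the JNK kinases, lies at chr1:58780791-58784047 on the minus strand. It had 1 peak in all, chr1:58783230-58783464 in the knockdown anti-ETO list, 235 bp wide and 583 bp downstream of the start. Peaks in the knockdown anti-ETO list and no other single-antibody list were found at 3.53% of all genes. This peak was absent when the knockdown lists were shortened by width to the control lengths.

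**Figure D3:**
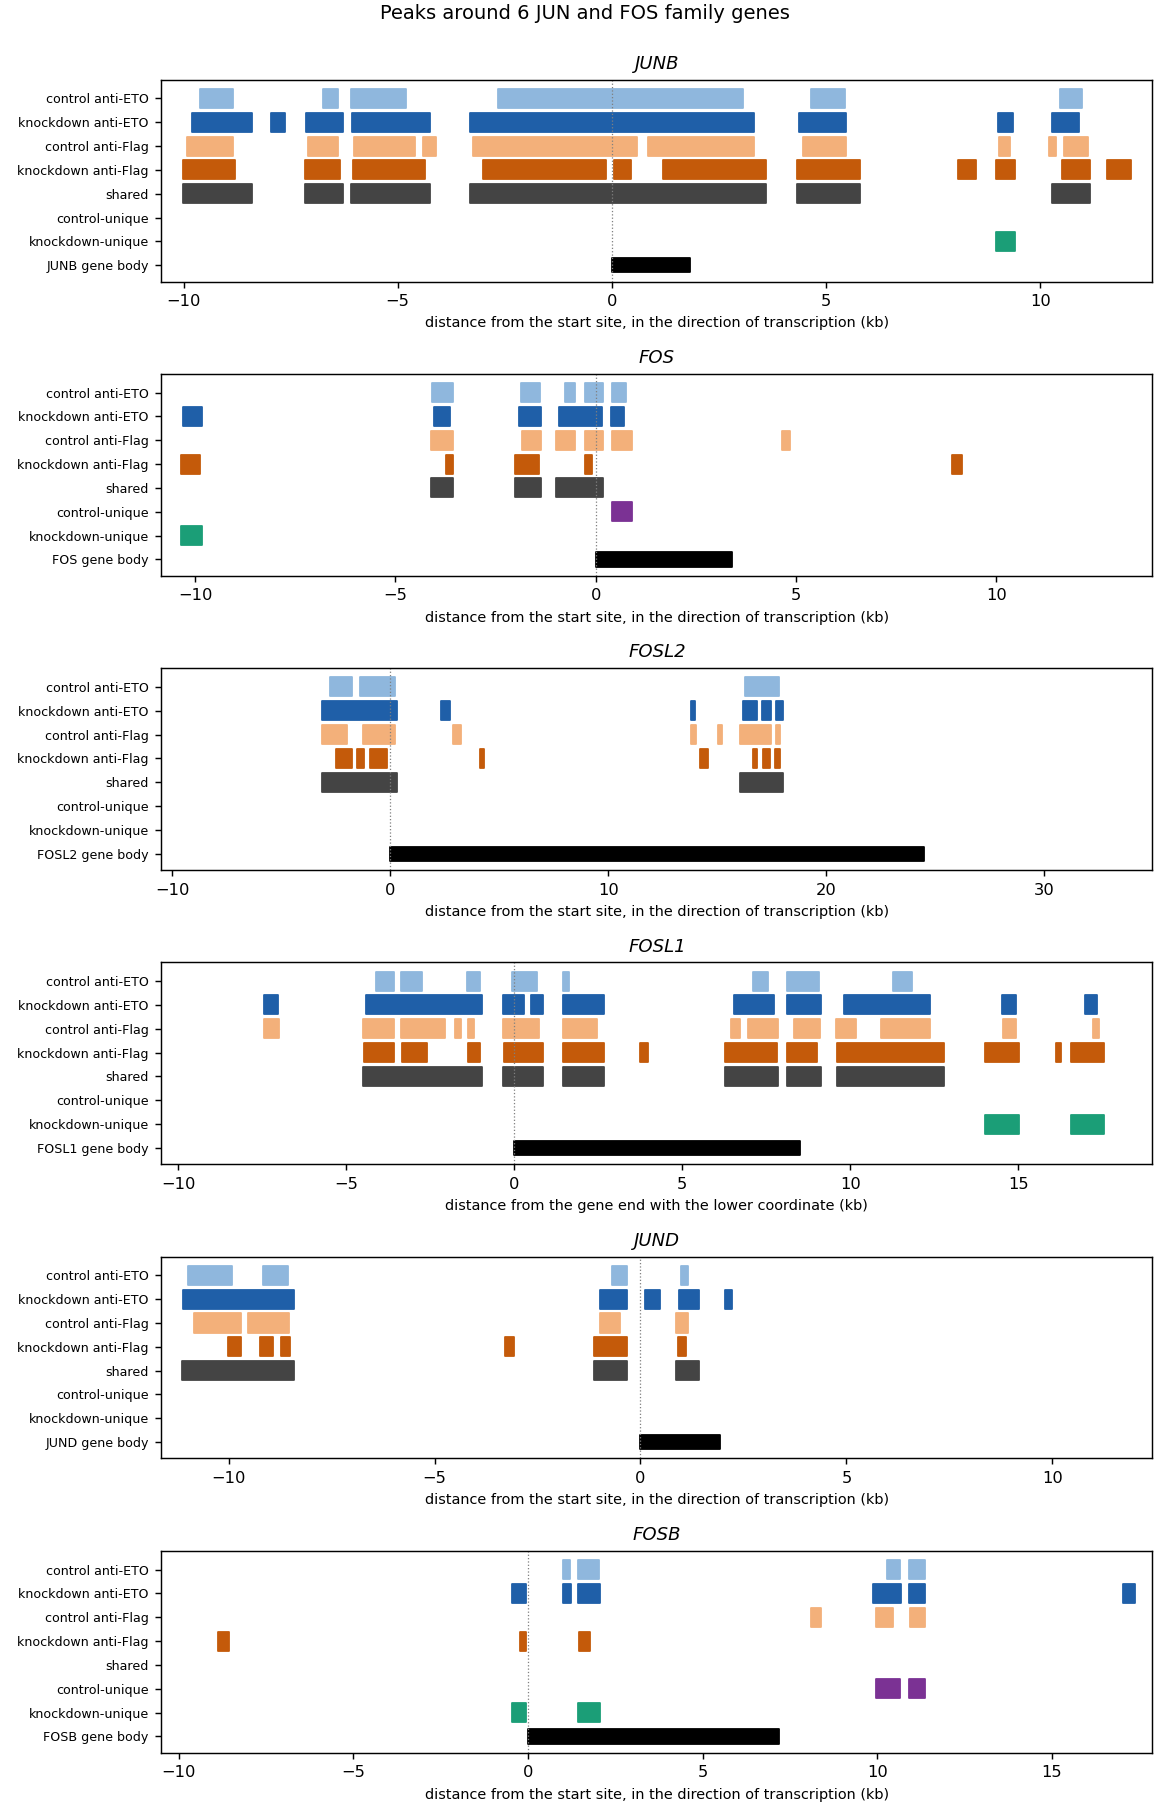
Peaks of the 4 single-antibody lists and of the 3 lists that compare the conditions (coloured bars, drawn to scale) around JUNB, FOS, FOSL2, FOSL1, JUND and FOSB, by distance in kb from the start site (dotted line) or, for FOSL1, from the end with the lower coordinate; the black bar is the gene body, and peaks that do not touch the 10 kb window are not drawn. The 6904 bp shared peak covers JUNB whole, and at FOSB the control-unique bars lie downstream of the gene and the knockdown-unique bars at its start and in its body.

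Of the FOS family, FOS is the classic immediate early gene and lies at chr14:75278828-75282230 on the plus strand. It had 5 control and 5 knockdown anti-ETO peaks, and 6 control and 5 knockdown anti-Flag peaks. Its 3 shared peaks stepped up to the gene: chr14:75274728-75275278 (551 bp), chr14:75276820-75277459 (640 bp) and chr14:75277844-75279010 (1167 bp), the last over the start. No annotated gene overlapped these peaks other than FOS itself. A control-unique peak, chr14:75279242-75279739, lay in the gene body 414 bp downstream of the start. An anti-ETO call was present there in knockdown too, with 305 bp of overlap, while the nearest knockdown anti-Flag call was 503 bp away. A knockdown-unique peak, chr14:75268486-75268996, lay 9832 bp upstream, with only 169 of its 511 bp inside the window. Neither antibody had a control call there, the nearest being 5738 bp (anti-ETO) and 5732 bp (anti-Flag) away.

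FOSB, a paralogue with a product known for building up in neurons after repeated stimulation, lies at chr19:45467996-45475179 on the plus strand. It had 4 control and 6 knockdown anti-ETO peaks, and 3 peaks in each anti-Flag list. The knockdown anti-ETO peak chr19:45485029-45485375 crossed the outer edge of the window. Control anti-ETO and control anti-Flag also called that region, but their peaks began beyond the window. Those control peaks are in neither the counts nor the covered length of FOSB. Both of its control dual-antibody peaks were control-unique and both of its knockdown ones knockdown-unique. The control-unique peaks, chr19:45477962-45478634 and chr19:45478899-45479369, lay beyond the 3′ end of the gene, and the former overlapped the selenocysteine transfer RNA gene TRU-TCA1-1. Both positions kept an anti-ETO call in knockdown, with 673 and 446 bp of overlap, and the nearest knockdown anti-Flag calls were 7104 and 6369 bp away.

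The knockdown-unique FOSB peaks lay at the other end. One, chr19:45467525-45467938, ended 58 bp before the start and had no control call of either antibody, the nearest anti-ETO call being 1069 bp and the nearest anti-Flag call 8150 bp away. The second, chr19:45469414-45470062, was in the gene body and overlapped a control anti-ETO call by 616 bp, with the nearest control anti-Flag call 6026 bp away. The anti-ETO calls thus overlapped between conditions at 3 of the 4 unique FOSB peaks, and the anti-Flag calls at 0 of them. A unique peak by definition has no dual-antibody peak in the other condition, so a site that keeps its anti-ETO call mostly lacks an anti-Flag call there. The share over all unique peaks was not computed, so these counts do not set FOSB apart. Peaks of both unique lists were found at 2 members, FOS and FOSB, against 4.46% of all genes. With a flank of 5 kb FOS had 0 knockdown-unique peaks and FOSB kept 2 of each kind. With the gene body alone neither gene had both kinds. Both unique lists with no shared peak were found at 1 member, FOSB, against 1.17% of genes.

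FOSL1 (FRA1), a FOS protein without the strong activation domain of FOS and a target of ERK signalling, lies at chr11:65892049-65900545. It had 8 control and 10 knockdown anti-ETO peaks, and 14 control and 12 knockdown anti-Flag peaks. Its 6 shared peaks covered 11751 bp, or 41.2% of its window, a length reached by 45 of all genes (0.225%). With the gene body alone FOSL1 had 4 shared peaks, and with a flank of 50 kb it had 12. The 6 included a peak over each end of the gene, chr11:65891712-65892920 and chr11:65900160-65901173, and a pair in the body. The widest, chr11:65887545-65891094 (3550 bp), overlapped the neighbouring genes CCDC85B and FIBP. A peak of 3183 bp on the other side, chr11:65901653-65904835, overlapped no annotated gene. Its 2 knockdown-unique peaks, chr11:65906053-65907063 (1011 bp) and chr11:65908610-65909601 (992 bp), lay farther out on that side. Both overlapped a control anti-Flag call, by 392 and 193 bp, and the nearest control anti-ETO calls were 2174 and 4731 bp away. The single knockdown-unique JUNB peak, chr19:12800443-12800881 over PRDX2, was alike in this: it overlapped a control anti-Flag call by 242 bp, and the nearest control anti-ETO call was 1055 bp away.

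FOSL2 (FRA2), the other FOS protein without a strong activation domain, lies at chr2:28392858-28417317 on the plus strand. It had 3 control and 6 knockdown anti-ETO peaks, and 7 control and 8 knockdown anti-Flag peaks. Its shared peak chr2:28389705-28393175 spanned 3471 bp over the start and the antisense gene FOSL2-AS1, and 2.42% of the shared list was at least as wide. The other, chr2:28408908-28410890, was 1983 bp wide and lay in the gene body 16050 bp downstream of the start. There the control lists had 1 anti-ETO peak of 1586 bp and 2 anti-Flag peaks of 1433 and 200 bp. The knockdown lists had 3 anti-ETO peaks of 660, 409 and 346 bp and 3 anti-Flag peaks of 175, 308 and 205 bp. Shared peaks covered 5454 bp, which 586 genes reached (2.93%).

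Among the relatives, BATF lacks an activation domain and acts with JUN and IRF proteins in lymphocytes. It lies at chr14:75522469-75546992 on the plus strand, 240238 bp from FOS. Anti-Flag called its start in both conditions, at chr14:75522226-75522784 in control and chr14:75522211-75522556 in knockdown. Anti-ETO called chr14:75522479-75522778, beginning 10 bp downstream of the start, and chr14:75542522-75542858 in the gene body, in knockdown alone. The knockdown calls of both antibodies at the start overlapped by 78 bp. No dual-antibody peak was listed there. Of 4 minimum overlaps tried for rebuilding the knockdown dual-antibody list (1, 50, 100 and 150 bp), 100 bp gave the most identical intervals, 13699 of 13712.

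ATF3, a stress-induced repressor that pairs with JUN proteins, spans chr1:212565407-212620777 with 2 listed starts. It had 1 control anti-ETO peak, chr1:212608853-212609057, and 2 knockdown anti-ETO peaks, chr1:212608375-212608577 and chr1:212608848-212609127. All 3 lay between these 2 listed starts, 5891 to 6441 bp upstream of the second, and no anti-Flag peak was listed. Starts of ATF3 outside that listing were not examined, so these distances hold for the listed starts only. BATF3, a factor needed for a class of dendritic cells, lies 65639 bp from ATF3 and had 0 peaks. A single-antibody peak with no dual-antibody peak was found at 3 members (JUN, BATF and ATF3), against 11.3% of all genes.

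**Figure D4:**
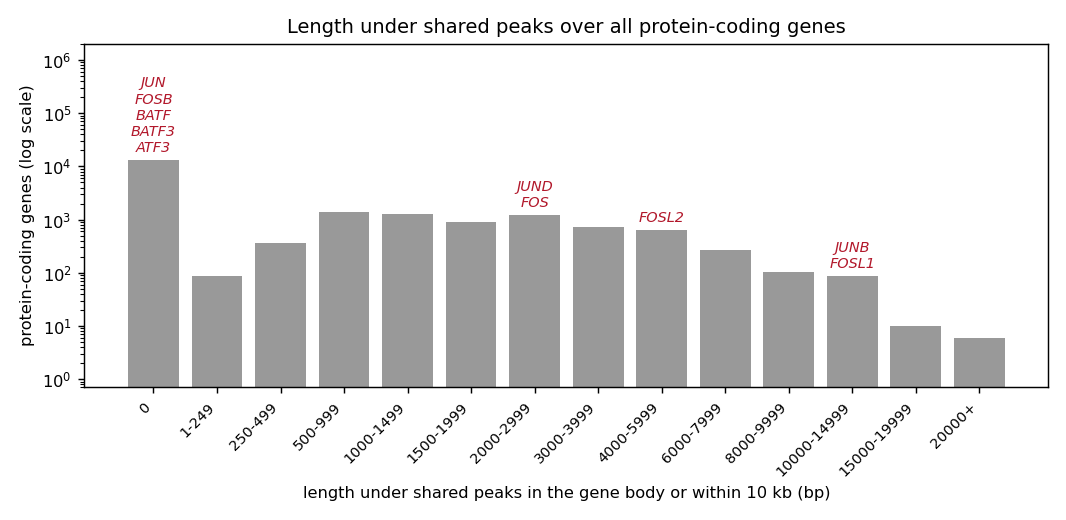
Number of protein-coding genes (log scale) by length under shared peaks in the body or within 10 kb (bp), with the 10 members named above their classes. JUNB and FOSL1 stand in the third class from the right, and JUN, FOSB, BATF, BATF3 and ATF3 stand at 0.

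Of 7004 genes with any shared peak, the median length under shared peaks was 1716.5 bp and the 90th percentile 5054 bp. JUNB, FOSL1 and FOSL2 (5454 bp) lay above the latter, and JUND (2943 bp) and FOS (2358 bp) lay between both values. The 20 shared peaks of the members had a median width of 1360 bp, against 1047 bp over the list, and ranged from 550 to 6904 bp. By position 9 touched a member's body, 8 lay in a flank and overlapped another gene at least in part, and 3 lay in a flank and overlapped none.

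Set against control, the knockdown lists covered more of these genes with anti-ETO peaks but not with anti-Flag peaks. Anti-ETO peaks at the members covered 23204 bp in control and 40106 bp in knockdown, a ratio of 1.73, and the whole anti-ETO list had a ratio of 1.67. Anti-Flag peaks covered 33019 and 32639 bp, a ratio of 0.988, and the whole list had 0.975. The members' totals therefore moved nearly as the lists did. For anti-ETO, 9 members had more bp in knockdown (47.4% of all genes did) and 0 had fewer (8.03%). For anti-Flag, 3 members had more bp in knockdown (17.5%) and 4 had fewer (35.0%). The base of these shares, and of those by direction below, includes genes with equal bp, such as those without a peak. Genes with more anti-ETO bp numbered 9466 and with fewer 1604, so those that differed mostly had more, as the members did. For anti-Flag, 3496 genes had more and 6998 fewer.

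**Figure D5:**
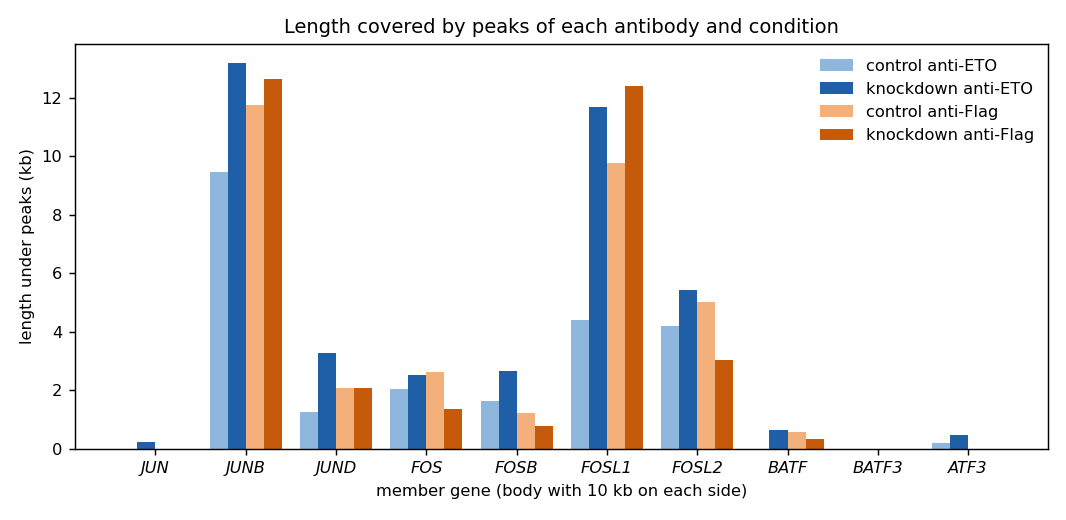
Length (kb) under peaks of anti-ETO and anti-Flag in control and knockdown at each of the 10 genes, counted over the body and 10 kb on each side; each bar is 1 list, with no replicate. The knockdown anti-ETO bar exceeds the control one at 9 genes, and the knockdown anti-Flag bar is below the control one at FOS, FOSB, FOSL2 and BATF.

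FOSL1 had 4394 bp under control and 11686 bp under knockdown anti-ETO peaks, 2.66 times as many, and 9775 and 12400 bp under anti-Flag peaks, 1.27 times as many. JUND had 1260 and 3268 bp for anti-ETO, a ratio of 2.59, and 2069 and 2077 bp for anti-Flag. JUNB had 9455 and 13174 bp for anti-ETO (1.39) and 11754 and 12638 bp for anti-Flag (1.08). At these 3 genes both antibodies had more bp in knockdown, as at 15.9% of all genes. At FOSL1 both directions held under every flank, width and list length tried. The anti-Flag difference at JUND was 8 bp and turned with the gene body alone (286 and 201 bp), and with the wider 50% or all lists shortened (1783 and 800 bp in both). The anti-Flag difference at JUNB turned with a flank of 5 kb (8008 and 7788 bp) and with the gene body alone (1562 and 1040 bp).

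At 4 members the antibodies went opposite ways, with more anti-ETO and fewer anti-Flag bp in knockdown, as at 27.0% of all genes. Where both antibodies differed, this was the most frequent combination over all genes (5387 genes, against 3177 with more of both). FOS had 2038 and 2525 bp under control and knockdown anti-ETO peaks, and 2641 and 1343 bp under anti-Flag peaks, a ratio of 0.509. FOSB had 1643 and 2671 bp for anti-ETO, and 1210 and 784 bp for anti-Flag (0.648). FOSL2 had 4209 and 5427 bp for anti-ETO, and 5011 and 3051 bp for anti-Flag (0.609). BATF had 0 and 637 bp for anti-ETO, and 559 and 346 bp for anti-Flag (0.619). The lower anti-Flag length in knockdown held at FOS and FOSL2 under every flank, width and list length tried. It turned at FOSB with the gene body alone (0 and 303 bp) and with a flank of 50 kb (11167 and 13507 bp), and at BATF with 50 kb (559 and 682 bp). The higher anti-ETO length turned at FOS with the gene body alone (535 and 487 bp) and at FOSL2 with the wider 50% (4209 and 4104 bp), and at BATF both lengths were 0 with the wider 50% or shortened lists. The reverse, fewer anti-ETO and more anti-Flag bp, was found at 0 members (0.446% of genes), and fewer of both at 0 (6.27%). ATF3 had 205 and 483 bp, and JUN 0 and 235 bp, for anti-ETO, and both had 0 for anti-Flag. When the knockdown lists were shortened by width to the control lengths, anti-ETO bp were higher in knockdown at 6 members and lower at 1 (ATF3, with 205 bp in control and 0 in knockdown), and the anti-Flag counts were again 3 and 4.

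Merging the 4 single-antibody lists gave 55 regions at the members. Of these, 20 were called in all 4 lists (36.4%, against 24.8% of all 35622 regions), and they lay at JUNB (6), FOSL1 (6), JUND (3), FOS (3) and FOSL2 (2). FOSB had 8 regions and none in all 4 lists. Regions of knockdown anti-Flag alone numbered 9 (22.3% of all regions were of this kind), of knockdown anti-ETO alone 7 (10.3%) and of control anti-Flag alone 4 (10.2%). Regions missing from control anti-ETO alone numbered 4 (7.29%), and regions missing from knockdown anti-Flag alone numbered 4 (6.48%), the latter at FOS and FOSB. Regions called by anti-ETO in both conditions and never by anti-Flag numbered 2, at ATF3 and FOSB (1.63%). Both knockdown lists and no control list called 2 (5.20%), knockdown anti-ETO with control anti-Flag called 2 (3.75%), and 1 at FOSB lacked only control anti-Flag (0.752%). The other kinds were found at 0 members: both control lists (1.76% of all regions), both anti-Flag lists (3.77%), control anti-ETO alone (1.40%), all but knockdown anti-ETO (0.267%) and control anti-ETO with knockdown anti-Flag (0.0393%).

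Genes around AP-1 were read from 5 lists in the same windows. Of all genes, 47.6% had a control and 53.8% a knockdown anti-ETO peak, 50.2% a control and 42.2% a knockdown anti-Flag peak, 35.1% a shared, 16.9% a control-unique and 18.4% a knockdown-unique peak. Of 11 other bZIP genes that can pair with AP-1 proteins, 9 had a control and 9 a knockdown anti-ETO peak, 9 a control and 8 a knockdown anti-Flag peak and 7 a shared peak. MAFG, a small MAF protein, had 6 shared and 4 knockdown-unique peaks. ATF7, an ATF2 relative, had 2 shared and 1 control-unique, and MAFK 1 of each unique kind. Of 16 MAP kinase pathway genes, 13 had a control and 14 a knockdown anti-ETO peak, 14 a control and 12 a knockdown anti-Flag peak and 10 a shared peak. RPS6KA1, an ERK-activated kinase, and MAP2K7, which activates JNK, had 5 shared peaks each. The p38 kinase gene MAPK11 had 3 knockdown-unique peaks, and the ERK1 gene MAPK3 had 2.

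Of 12 immediate early and serum response genes, 10 had a shared peak (35.1% of all genes), with 10 and 11 at an anti-ETO peak in control and knockdown and 11 and 10 at an anti-Flag peak. The nuclear receptor gene NR4A1 had 4 shared peaks, IER2 had 3 with 2 knockdown-unique, and EGR3 had 2 control-unique and 1 knockdown-unique. Of 8 dual specificity phosphatase genes, whose products switch MAP kinases off, 5 had a shared peak (35.1% of all genes), 5 a control-unique (16.9%) and 0 a knockdown-unique peak (18.4%). In that list 6 and 8 genes had an anti-ETO peak in control and knockdown, and 7 and 5 an anti-Flag peak. DUSP10 had 3 control-unique peaks, DUSP4 2, DUSP6 2 shared peaks and DUSP1 1. Of 14 textbook AP-1 targets, 6 had a peak in each single-antibody list and 6 a shared peak. VIM (vimentin) had 2 shared peaks and PLAU (urokinase) 1, and MMP9 had 2 control-unique peaks and CCND1 (cyclin D1) 1. The median number of shared peaks was 1 among the members and in the first 4 lists, and 0 among the AP-1 targets and among all genes.

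Unique peaks in these lists were at 3 bZIP genes for each condition, at 5 and 5 MAP kinase genes for control and knockdown, at 4 and 5 immediate early genes, and at 2 and 1 AP-1 targets. The genes of these 5 lists, and no others, were also compared with the members' mean counts over the 7 lists of single-antibody, shared and unique peaks. The nearest among them was SRF, the serum response factor gene. It had 4 and 5 anti-ETO, 4 and 4 anti-Flag, 2 shared, 1 control-unique and 1 knockdown-unique peaks, a summed absolute difference of 3.6 peaks. ATF7 followed at 3.8 and IER5 at 4.6.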

How the data were processed

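The deposited data were 9 BED lists of peak positions by chromosome, start and end, with no score, count or header. Per the labels' protocols, each condition took 200000 sorted cells, size selection kept 150 to 400 bp, and about 40 M paired reads of 75 bp were planned per library. The submitters' processing notes name hg38, sacCer3, fastp 0.19.5, Bowtie2 2.3.5, MACS2 2.2.5 and HOMER 4.8. The peak threshold, the use of IgG and the handling of replicates are not given in the sources used here. The length of a list and of its peaks depends on that threshold and on depth.

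Peaks were assigned to genes by at least 1 bp of overlap with the body extended by 10 kb (RefSeq, GRCh38.p14). Positions are printed with starts counted from 1. Strands and start sites came from the RefSeq promoter table, which matched 8 of the 10 members (not FOSL1 or BATF3). A peak that touches a window is counted whole in peak counts and widths and only inside the window in covered length. Rebuilding the authors' deposited lists with an overlap of at least 100 bp gave 12234 of 12247 control and 13699 of 13712 knockdown dual-antibody intervals, and 8715 of 8731 shared, 3059 of 3059 control-unique and 4616 of 4617 knockdown-unique intervals.

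Covered length counts bp of a window under any peak. Regions are overlapping peaks of the 4 single-antibody lists merged. Backgrounds are shares of protein-coding genes, merged regions or promoters, and no test was made, since the lists name no replicate. Named genes were all members, the overlapping neighbours, and in each pathway list up to 2 with the most shared peaks and up to 2 with unique peaks. The 3 genes of the pathway lists nearest the members' mean counts were named as well. The members and lists were chosen with earlier results of these data known. Alternatives were other flanks, overlap rules, widths, list lengths, merging gaps, rebuilt lists and all annotated genes. The interval functions were also tested on simulated data (2000 intervals per list, 1200 overlaps built in) and passed 10 of 10 checks. Python 3.11.15, numpy 2.4.6, pandas 2.3.3 and matplotlib 3.10.9 were used.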

Additional observations from a re-analysis of the deposited data

How the results depend on the processing

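Of 193 values recomputed, 131 stayed within the limits set and 62 moved. For counts the limit was 1.5 times the reported value. For the background shares it was the confidence interval of the reported share, and all 9 moved. Requiring the peak centre in the window, an overlap of at least 100 bp, or rebuilt lists moved none. With the gene body alone, peaks at the members were 13 (control anti-ETO), 23 (knockdown anti-ETO), 17 (control anti-Flag), 15 (knockdown anti-Flag), 10 and 12 (dual-antibody, control and knockdown), 9 (shared), 1 (control-unique) and 1 (knockdown-unique), members with a unique peak were 1 and 1, and 1 member had fewer anti-ETO bp in knockdown. With 5 kb, knockdown-unique peaks were 2, at 1 member (FOSB). With 50 kb, the peaks in the same order were 77, 124, 122, 168, 71, 86, 55, 10 and 28, members with a shared, control-unique and knockdown-unique peak were 8, 5 and 7, fewer anti-ETO bp were at 1 member and more anti-Flag bp at 5. With the wider 50% of each list, peaks were 18 (control anti-ETO), 22 (knockdown anti-ETO), 25 (knockdown anti-Flag), 17 and 18 (dual-antibody), 13 (shared) and 3 (knockdown-unique, at 2 members), regions were 32, with 11 in all 4 lists and 9 in 1, and anti-ETO bp were more at 5 members and fewer at 1. With knockdown lists shortened to the control lengths, knockdown anti-ETO peaks were 29, control-unique 6 and knockdown-unique 3, with fewer anti-ETO bp at 1 member. With all 4 lists shortened to 14264 peaks, peaks were 29 (knockdown anti-ETO), 28 (knockdown anti-Flag), 18 (knockdown dual-antibody), 7 (control-unique) and 2 (knockdown-unique, at 2 members), with fewer anti-ETO bp at 1 member. Merging gaps of up to 500 bp left 10 regions in 1 list. Over all 59098 annotated genes the backgrounds, in the same order, were 26.3%, 30.5%, 28.6%, 24.1%, 24.1%, 21.8%, 19.0%, 9.10% and 9.90%.

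Under both ways of shortening JUNB had 6 shared peaks, FOS 1 shared and 4 control-unique peaks, and FOSB 2 control-unique peaks with 1 (knockdown lists shortened) or 0 (all shortened) knockdown-unique ones. The cause of these moves was not tested, beyond the smaller windows and shorter lists themselves. Depth is unknown, so a missing call does not show an unoccupied site. No paired analysis was possible because the lists name no replicate, and leaving out a library was not possible for the same reason.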
